A study of Equus caballus with 14 samples.

Results

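ENSECAG00000017274, ENSECAG00000006694 and ENSECAG00000035510 are transcripts of the equine corpus luteum, known here by Ensembl identifier alone, and their levels were followed gland by gland. They are 3 of the 30371 genes in the deposited count table, and all 3 are among the 15437 genes with enough counts to be tested. They were picked because they stood much higher at day 13 than at day 11 after ovulation, so their day difference is given as a description, with no test. The table does not pair identifiers with gene names, and the reference table used here matched 0 of them. No symbol, protein, sequence or position is therefore given for any gene.

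The study took transvaginal needle biopsies from healthy, normally cycling light-breed mares to look for genes with stable luteal expression across pregnancy status and day. There were 4 libraries labelled pregnant at day 11 (P11), 4 labelled non-pregnant at day 11 (NP11), 2 labelled pregnant at day 13 (P13) and 4 labelled non-pregnant at day 13 (NP13). The 14 libraries came from 8 glands of 6 named mares, of 8 enrolled. The glands Emma and Cornelia were labelled pregnant on both days, and the glands Kiwi, Kate2 and Emma2 non-pregnant on both. Kate2 and Emma2 are second glands of the mares Kate and Emma. The first gland of Kate carries the label pregnant at day 11 and non-pregnant at day 13, and the sources do not say whether pregnancy was lost between the biopsies or 1 of the labels is mistaken. Gisela (pregnant) and Roanie (non-pregnant) were sampled at day 11 only. Each of the 6 glands of day 13 had been biopsied at day 11 too, so day and an earlier biopsy cannot be told apart.

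The corpus luteum forms from the ovulated follicle and secretes progesterone. In the mare that is not pregnant, prostaglandin F2α from the uterus ends its life after the middle of the luteal phase. The presence of a conceptus prevents that release, and the gland persists. The tissue holds steroidogenic cells, a dense capillary bed, fibroblasts and immune cells. Because no marker gene could be named, the tissue of each library was not checked against markers, and in such bulk samples a change in the cells present and a change in RNA per cell cannot be told apart.

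Total counts ran from 20182039 to 32186736 per library, and day 13 was sequenced more deeply than day 11 in 1 of the 6 glands. Levels are in counts per unit of library size (CPM), scaled by the trimmed mean of M-values (TMM). CPM is not corrected for gene length, so levels are compared between libraries and not between genes. Intervals of single libraries are exact Poisson 95% intervals and cover counting error only, since reads without molecular identifiers are not independent molecules.

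ENSECAG00000017274 had the most reads of the 3. At day 11 it stood at 0.999 CPM in Emma, 0.472 CPM in Cornelia, 5.20 CPM in the first gland of Kate and 10.4 CPM in Gisela, the 4 libraries labelled pregnant. In the non-pregnant libraries of that day it stood at 2.86 CPM in Roanie, 1.70 CPM in Kiwi, 1.75 CPM in Kate2 and 5.23 CPM in Emma2. The range of the non-pregnant libraries lay inside that of the pregnant ones, and the highest and lowest libraries of day 11, Gisela and Cornelia, were both pregnant and lay 22.0-fold apart. At day 13 it stood at 89.2 CPM in Emma, 64.6 CPM in Cornelia, 13.4 CPM in Kiwi, 45.4 CPM in Kate2, 111 CPM in Emma2 and 2.46 CPM in the first gland of Kate. Of the 6 day 13 libraries, 5 were above every day 11 library and the first gland of Kate was not.

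Within glands, the ratio of day 13 to day 11 for ENSECAG00000017274 was 137 in Cornelia (95% counting interval 82.8 to 245) and 89.3 in Emma (61.2 to 136). In the non-pregnant glands the ratio was 26.0 in Kate2 (19.8 to 34.8), 21.2 in Emma2 (18.1 to 25.0) and 7.87 in Kiwi (5.82 to 10.8). In the first gland of Kate the ratio was 0.473 (0.340 to 0.651), lower at day 13 beyond counting error. The order of the glands by ratio was not their order by day 13 level: Emma2 had the highest level at day 13 and the fourth highest ratio, starting from 5.23 CPM.

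ENSECAG00000006694 was less variable at day 11. In the pregnant libraries it stood at 0.666 CPM in Emma, 0.787 CPM in Cornelia, 0.697 CPM in Gisela and 2.41 CPM in the first gland of Kate. In the non-pregnant libraries it stood at 1.01 CPM in Roanie, 1.17 CPM in Kiwi, 2.07 CPM in Kate2 and 0.904 CPM in Emma2. The glands of the mare Kate were the highest at day 11, with intervals that overlapped each other (1.83 to 3.12 CPM and 1.60 to 2.65 CPM). At day 13 it stood at 15.5 CPM in Emma, 27.8 CPM in Cornelia, 4.17 CPM in Kiwi, 11.8 CPM in Kate2, 17.1 CPM in Emma2 and 1.82 CPM in the first gland of Kate. Again 5 of the 6 day 13 libraries were above every day 11 library, and the first gland of Kate lay within the day 11 range.

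The ratio of day 13 to day 11 for ENSECAG00000006694 was 35.3 in Cornelia (95% counting interval 23.7 to 54.8), 23.3 in Emma (14.6 to 39.7) and 18.9 in Emma2 (12.9 to 28.9). It was 5.68 in Kate2 (4.33 to 7.55) and 3.57 in Kiwi (2.39 to 5.44). In the first gland of Kate it was 0.756, with an interval of 0.497 to 1.14 that includes no change.

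ENSECAG00000035510 was close to the detection limit at day 11. Its counts were 0 in Emma, 1 in Cornelia, 5 in the first gland of Kate and 5 in Gisela among the pregnant libraries, or at most 0.211 CPM. Among the non-pregnant libraries they were 2 in Roanie, 4 in Kiwi, 7 in Kate2 and 5 in Emma2, or at most 0.227 CPM. For Emma the 95% counting interval of the count of 0 reached 0.136 CPM, and 3 reads would be 0.111 CPM. At day 13 it stood at 3.21 CPM in Emma, 6.72 CPM in Cornelia, 0.900 CPM in Kiwi, 6.29 CPM in Kate2, 0.996 CPM in Emma2 and 0.806 CPM in the first gland of Kate. All 6 day 13 libraries were above all 8 day 11 libraries, which held for 0.0259% of the genes tested (4 genes). The gene was picked on this contrast, so nothing is read from that share.

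For ENSECAG00000035510 the count of 0 in Emma at day 11 gives no ratio. Its day 13 level there was 28.9 times the level that 3 reads would give at day 11. The ratio was 213 in Cornelia, with a counting interval of 37.9 to 8471 because day 11 rests on 1 read. It was 27.7 in Kate2 (13.2 to 70.0), 6.74 in Kiwi (2.24 to 27.2), 6.17 in Emma2 (2.28 to 20.9) and 3.81 in the first gland of Kate (1.38 to 13.1). Only for this gene of the 3 was the first gland of Kate higher at day 13, on 5 and 19 reads.

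**Figure D1:**
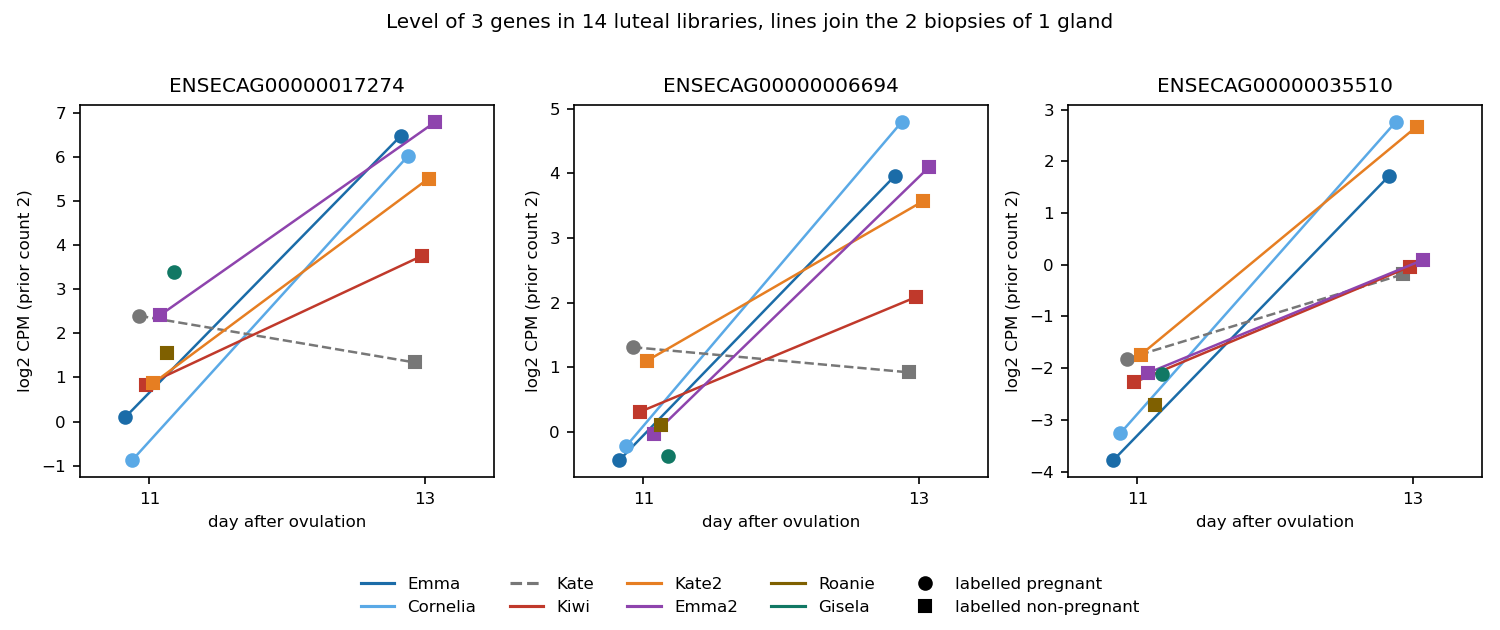
Level of each gene in 14 libraries (log2 CPM with a prior count of 2) against day after ovulation. Points are libraries, circles pregnant and squares non-pregnant by label, set slightly apart within a day so that they can be seen. Lines join the 2 biopsies of 1 gland, with the first gland of Kate dashed. The dashed line slopes down for the first 2 genes and up for ENSECAG00000035510, and all other lines slope up.

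Counting intervals show which neighbours in the order of levels could be told apart. For ENSECAG00000017274 the highest 6 libraries (Emma2, Emma, Cornelia, Kate2 and Kiwi at day 13, then Gisela at day 11) had intervals that did not overlap. The last 2 of these were close, with 11.9 to 15.1 CPM in Kiwi and 9.29 to 11.6 CPM in Gisela. Below them, Emma2 and the first gland of Kate at day 11 overlapped, as did Roanie at day 11 and the first gland of Kate at day 13. For ENSECAG00000006694, Emma2 (15.4 to 18.9 CPM) and Emma (14.2 to 17.0 CPM) at day 13 overlapped, while Cornelia lay above both and Kate2 and Kiwi below. For ENSECAG00000035510, Cornelia (5.83 to 7.70 CPM) and Kate2 (5.36 to 7.32 CPM) overlapped at the top, Emma followed apart from them, and Emma2, Kiwi and the first gland of Kate overlapped at the bottom of day 13.

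On the log2 scale with a prior count of 2, the median change over the 6 glands was 4.52 for ENSECAG00000017274 (range -1.06 to 6.89). It was 3.32 for ENSECAG00000035510 (range 1.63 to 6.03) and 3.30 for ENSECAG00000006694 (range -0.39 to 5.02). By this median they ranked 5, 24 and 26 among 15437 genes, so other genes had changes as large. A change of at least 4-fold upward in at least 5 of 6 glands was met by 0.194% of genes tested (30 genes). ENSECAG00000017274 and ENSECAG00000035510 are among those 30, and ENSECAG00000006694 is just outside, with 4 glands past 4-fold and Kiwi at a log2 change of 1.77. No gene was at least 4-fold lower in 5 glands. ENSECAG00000017274 was the 1 gene of the 30 that averaged 10 CPM or more, and so the best supported by reads.

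**Figure D2:**
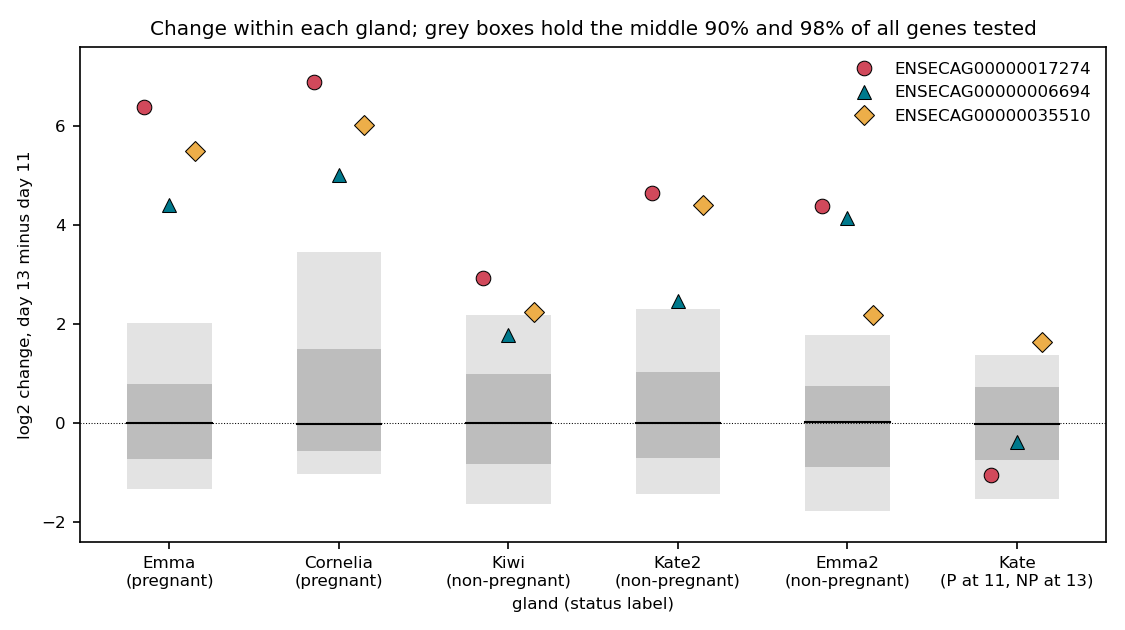
Log2 change from day 11 to day 13 (prior count 2) within each of the 6 glands sampled on both days, for the 3 genes (coloured points). Dark and light grey boxes hold the middle 90% and 98% of all genes tested in that gland, and black lines their medians. All 3 genes lie above the dark box in Emma, Cornelia, Kiwi, Kate2 and Emma2. In the first gland of Kate ENSECAG00000017274 lies below the dark box, ENSECAG00000006694 inside it and ENSECAG00000035510 above both boxes.

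The genes did not keep a fixed proportion to one another. Reads of ENSECAG00000017274 per read of ENSECAG00000006694 ran from 0.6 in Cornelia to 14.9 in Gisela at day 11, a ratio that library depth and scaling do not affect. At day 13 they ran from 1.35 in the first gland of Kate to 6.48 in Emma2. In Emma2 the ratio was alike on both days (5.79 and 6.48), and in Emma it went from 1.5 to 5.75. Gisela, sampled once, thus had the highest day 11 level of ENSECAG00000017274 and the second lowest of ENSECAG00000006694. ENSECAG00000035510 was out of proportion in Emma2 at day 13, with 111 reads of ENSECAG00000017274 per read of it, against 27.8 in Emma, 14.9 in Kiwi, 9.62 in Cornelia, 7.23 in Kate2 and 3.05 in the first gland of Kate.

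Spread between glands of the same day was wide for these genes. The SD of log2 CPM over the 8 day 11 libraries was 1.39 for ENSECAG00000017274, 0.66 for ENSECAG00000006694 and 0.72 for ENSECAG00000035510, against a median of 0.28 over all genes tested. Of all genes, 97.6%, 83.7% and 86.4% had a smaller SD. Counting error is part of these values, most of all for ENSECAG00000035510. The day 11 means were 3.58 ± 3.28 CPM, 1.21 ± 0.661 CPM and 0.125 ± 0.0817 CPM in the same order (SD, n = 8), and the day 13 means were 54.3 ± 42.3 CPM, 13.0 ± 9.44 CPM and 3.15 ± 2.75 CPM (SD, n = 6).

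Status at a given day was not the contrast on which the genes were picked, although the day difference that was used shares its libraries, those of the pregnant glands among them. At day 11, P11 and NP11 overlapped for all 3 genes; they did not overlap for 1.81% of genes tested. Mean levels of ENSECAG00000017274 were 4.26 ± 4.60 CPM in P11 and 2.89 ± 1.65 CPM in NP11 (SD, n = 4 each). The log2 difference, P11 minus NP11, was 0.56 ± 0.99 (SE), with a 95% interval of -1.58 to 2.70. Without Gisela it was -0.42. Means of ENSECAG00000006694 were 1.14 ± 0.848 CPM and 1.29 ± 0.534 CPM (SD, n = 4 each), and its log2 difference was -0.21 with an interval of -1.59 to 1.18. That difference was 0.12 without Kate2 and -0.85 without the first gland of Kate. Means of ENSECAG00000035510 were 0.100 ± 0.101 CPM and 0.151 ± 0.0608 CPM (SD, n = 4 each), and its log2 difference was -0.62 with an interval of -2.69 to 1.46. No day 11 library held more than 7 reads of ENSECAG00000035510, which passed the low-count filter through its day 13 counts. Its day 11 difference therefore rests on values near the detection limit, and little can be read from it. Adjusted p was 1 for each of the 3 in edgeR's quasi-likelihood test, and 0% of all genes passed 0.05 (4.13% at an unadjusted p under 0.05, and 2 genes past the threshold in DESeq2). Differences of 2-fold in either direction lie inside each interval.

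At day 13 the 2 pregnant libraries had the higher mean for all 3 genes, and none passed the test. Means of ENSECAG00000017274 were 76.9 ± 17.4 CPM in P13 (SD, n = 2) and 43.1 ± 48.8 CPM in NP13 (SD, n = 4). The log2 difference, P13 minus NP13, was 0.84 ± 1.07 (SE) with an interval of -1.46 to 3.13. Those of ENSECAG00000006694 were 21.6 ± 8.64 CPM in P13 (SD, n = 2) and 8.72 ± 7.03 CPM in NP13 (SD, n = 4), and its log2 difference was 1.31 ± 0.67 (SE) with an interval of -0.13 to 2.75. Those of ENSECAG00000035510 were 4.96 ± 2.48 CPM in P13 (SD, n = 2) and 2.25 ± 2.69 CPM in NP13 (SD, n = 4), and its log2 difference was 1.13 ± 0.82 (SE) with an interval of -0.62 to 2.89. Adjusted p was 0.999 in edgeR for each, and 0% of all genes passed, with 2% at an unadjusted p under 0.05. In each case the highest NP13 library lay above the lower P13 library, so the groups overlapped.

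One library decided part of these values. The log2 fold change of ENSECAG00000035510 at day 13 was 2.46 without Kate2 and 0.51 without Cornelia. For ENSECAG00000017274 it was 0.44 without the first gland of Kate at day 13 and 1.91 without Emma2. Biopsies fell in June, except those of Cornelia and Emma2 in August. Within June the day 13 log2 fold changes were 2.12, 1.39 and 0.26 for ENSECAG00000017274, ENSECAG00000006694 and ENSECAG00000035510, on 1 pregnant library. At day 11 within June they were 1.41, -0.20 and -0.28. August holds 1 gland of each status and allows no test. There, ENSECAG00000017274 was lower in Cornelia than in Emma2 on both days, and the other genes were higher in Cornelia at day 13.

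**Figure D3:**
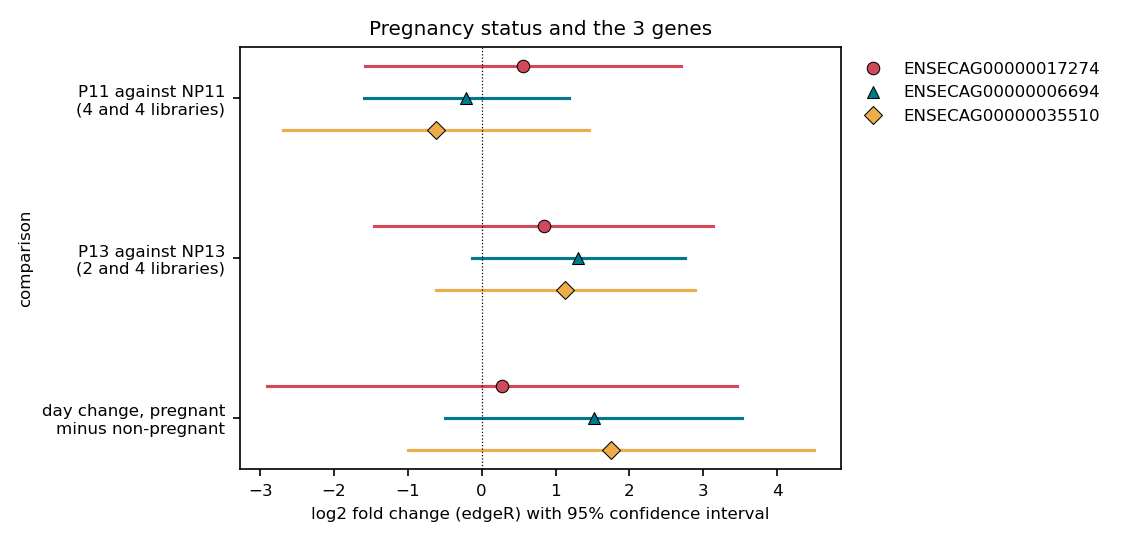
Log2 fold change (x axis) of the 3 genes for pregnant against non-pregnant at day 11 and day 13, and for the difference of their day changes, from edgeR over 14 libraries. Bars are 95% confidence intervals, and all 9 include 0. This fit has no block, so it ignores that libraries are paired by gland. With each gland as a block, the differences of the day changes were larger, as given in the text.

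The size of the day difference was then set against status. Over all 14 libraries the log2 difference of the day changes, pregnant minus non-pregnant, was 0.27 ± 1.48 (SE) for ENSECAG00000017274, 1.52 ± 0.94 (SE) for ENSECAG00000006694 and 1.75 ± 1.28 (SE) for ENSECAG00000035510. None passed (adjusted p of 1 in edgeR for each, after rounding), and 0% of all genes did, with 1.66% at an unadjusted p under 0.05. With each gland as its own block, the comparison rests on 2 pregnant and 3 non-pregnant glands and the values were 2.65 ± 0.52 (SE), 2.003 ± 0.67 (SE) and 4.36 ± 1.19 (SE). The unadjusted p in edgeR with this block was 0.00114, 0.0190 and 0.00706, against 1.58% of all genes with an unadjusted p under 0.05, and the adjusted p was 1 for all 3. With this block the fit uses only the day changes within glands, and these enter the day difference on which the genes were picked. These unadjusted p-values therefore cannot test status, and the share of all genes is not a like comparison. Nothing is read from either. The genes were in part picked for their size in the pregnant glands, and the mare Emma gave a gland to each status. The larger values with this block are thus not independent evidence of a difference.

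In those 5 glands the change of both pregnant glands was above that of all 3 non-pregnant glands for each of the 3 genes. This order held for 5.31% of genes tested. Among the 30 genes at least 4-fold higher in at least 5 of 6 glands it held for 13, ENSECAG00000017274 and ENSECAG00000035510 included. The 3 genes were picked for a large rise, so the share over all genes is not a like comparison. The list of 30 was chosen on these same changes and does not hold ENSECAG00000006694, so nothing is read from its count either. For ENSECAG00000017274 the log2 changes were 6.38 in Emma and 6.89 in Cornelia against 2.92 in Kiwi, 4.64 in Kate2 and 4.39 in Emma2. For ENSECAG00000006694 they were 4.40 and 5.02 against 1.77, 2.46 and 4.14, in the same order of glands. For ENSECAG00000035510 they were 5.50 and 6.03 against 2.24, 4.41 and 2.19.

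The day 11 levels of these 5 glands did not overlap either, and the day 13 levels did. At day 11 Emma and Cornelia were below all 3 non-pregnant glands for each of the 3 genes, as for 7.42% of genes tested. These levels enter the day difference on which the genes were picked, so nothing is read from that share. For ENSECAG00000035510 the counts were 0 in Emma and 1 in Cornelia, against 4 in Kiwi, 7 in Kate2 and 5 in Emma2. At day 13 the levels of both pregnant glands were above all 3 non-pregnant glands for 0 of the 3 genes, and for 5.65% of genes tested: Emma2 exceeded both pregnant glands for ENSECAG00000017274, Emma2 exceeded Emma for ENSECAG00000006694, and Kate2 exceeded Emma for ENSECAG00000035510. The other pregnant libraries of day 11 did not share the low level throughout: Gisela was the highest of day 11 for ENSECAG00000017274, and the first gland of Kate the highest for ENSECAG00000006694.

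Apart from the 3 themselves, genes whose levels followed each of them most closely were found by Pearson's r of log2 CPM among the 12997 other genes that averaged 1 CPM or more. The 14 libraries share glands and mares, and the day difference on which the 3 were picked enters each r, so these are descriptions. ENSECAG00000039058 was most like ENSECAG00000017274 (r = 0.96 over 14 libraries), followed by ENSECAG00000015220 (r = 0.95). ENSECAG00000039058 had a median of 0.218 CPM at day 11 and 16.8 CPM at day 13, with 0.424 CPM in the first gland of Kate at day 13. Like ENSECAG00000017274, it was highest in Emma2 at day 13 (29.8 CPM). In Gisela at day 11, where ENSECAG00000017274 was highest, it stood at 0.570 CPM, below the first gland of Kate (1.82 CPM).

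Of these other genes, ENSECAG00000018954 was most like ENSECAG00000006694 (r = 0.97) and also most like ENSECAG00000035510 (r = 0.91). It had a median of 0.0368 CPM at day 11, near the value of 1 read, and ran from 0.0424 CPM in the first gland of Kate to 8.10 CPM in Cornelia at day 13. With the 3 genes left out of the ranking, ENSECAG00000010615 came second for ENSECAG00000006694 (r = 0.94) and ENSECAG00000004961 for ENSECAG00000035510 (r = 0.90). ENSECAG00000004961 stood at 0.0848 CPM in the first gland of Kate at day 13, below its day 11 value there of 0.465 CPM, which is the opposite of ENSECAG00000035510 in that gland. Between the 3 genes themselves r was 0.88 for ENSECAG00000017274 and ENSECAG00000006694, 0.84 for ENSECAG00000017274 and ENSECAG00000035510, and 0.92 for ENSECAG00000006694 and ENSECAG00000035510, which was higher than that of any other gene with ENSECAG00000035510. Over the 8 day 11 libraries alone, r was 0.15, 0.67 and 0.69 for the same pairs. The last 2 values involve ENSECAG00000035510, which had 0 to 7 reads in each of these libraries, so counting error weighs on them. Some of these libraries also share a mare.

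**Figure D4:**
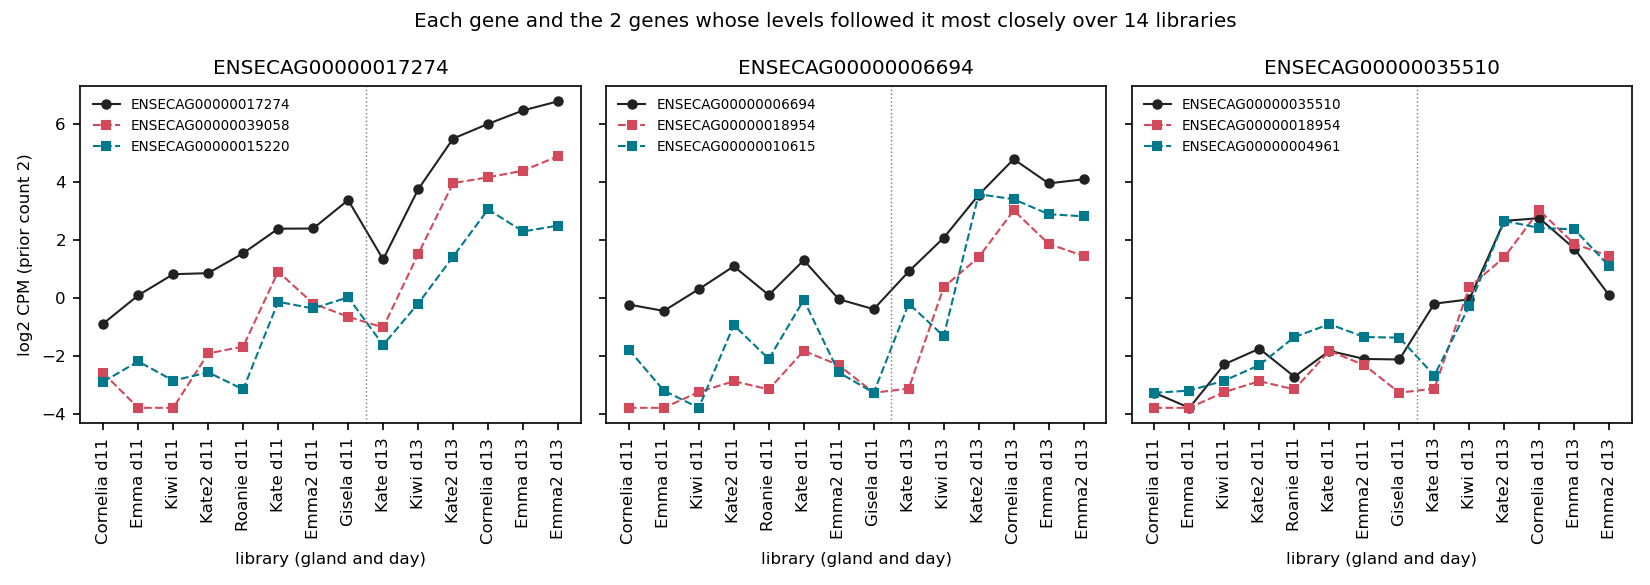
Log2 CPM (prior count 2, y axis) of each gene (black circles) and of the 2 genes most like it (coloured squares) in 14 libraries. In every panel the libraries stand in the order of ENSECAG00000017274 within day 11 (left of the dotted line) and within day 13, and lines only guide the eye. At day 13 the followers stand lower in the first gland of Kate than in Kate2, Cornelia, Emma and Emma2.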

How the data were processed

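Read counts of 14 directional poly(A) RNA-seq libraries, made from 1000 ng of total RNA, were used as deposited. The submitters' processing notes name Trim Galore, STAR and the build EquCab3.0. Which versions, counting tool, strand setting and annotation were used is not given in the sources used here, so counts of near-identical or overlapping genes are uncertain. The deposited counts are whole numbers per Ensembl gene.

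Columns were matched to samples by library name. Replicate numbers follow sample order and pair nothing. Mares and glands come from the labels, so libraries of 1 gland are paired by design; deviations from group means correlated at 0.031 to 0.52 over 6 gland pairs. No pair of libraries was a copy (chi-square per degree of freedom at least 21.9). Libraries of 1 mare are not independent, which unblocked p-values ignore.

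Genes were kept by edgeR's filterByExpr (99.974% of counts), scaled by TMM and tested by quasi-likelihood F test (edgeR 4.0.16, R 4.3.3), with 1 mean per group over 14 libraries and Benjamini-Hochberg adjustment over 15437 genes. The spread was estimated over all groups together, since P13 has 2 libraries. DESeq2 1.42.0, limma 3.58.1 with voom, blocks, month, filters, scalings and left-out libraries were alternatives. Scripts were tested on simulated data. The 3 genes, lists and tests were chosen with earlier results of these data known. Genes named beside them are, for each, the 2 with the highest r once the 3 themselves are left out. Planned gene lists and cell type markers could not be matched to identifiers and were not used.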

Additional observations from a re-analysis of the deposited data

Results flagged for a closer look

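Within each group of 4 libraries, and over the 6 glands for the changes, the highest and lowest values were set against the rest in 27 sets of values, and 4 values stood apart. For independent, normally distributed values chance would set apart about 1 in 20. CPM values of genes chosen for their likeness need not meet those conditions, so the 4 are not read against that rate. ENSECAG00000006694 was at 2.41 CPM in the first gland of Kate at day 11 (P11 replicate 2), with the other P11 libraries at 0.6659 to 0.7866 CPM. ENSECAG00000018954, the gene most like it, stood apart in the same library at 0.2114 CPM, with the others at 0 to 0.03167 CPM. It was named for its r with ENSECAG00000006694 over these same libraries, so this is not a second observation. Its values there rest on few reads, since 1 read in P11 replicate 2 is 0.0423 CPM. ENSECAG00000035510 was at 6.286 CPM in Kate2 at day 13 (NP13 replicate 3), with the other NP13 libraries at 0.8057 to 0.9962 CPM. ENSECAG00000015220 was at 0.7101 CPM in Emma2 at day 11 (NP11 replicate 4), with the other NP11 libraries at 0.04029 to 0.09716 CPM.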

How the results depend on the processing

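For the 3 genes, no comparison of status passed an adjusted p of 0.05 under any alternative that gave one; DESeq2 gave no p for ENSECAG00000035510. With DESeq2, 2 genes passed at day 11 in place of 0. The day 11 log2 fold change of ENSECAG00000017274 was -0.42 with limma's random block, -0.42 with the replicate block on mares, and -0.42 to 1.03 when 1 library was left out. That of ENSECAG00000006694 was -0.85 to 0.12 when 1 library was left out. The difference of the day changes of ENSECAG00000017274 was -0.0039 without the first gland of Kate and -0.19 to 1.34 when 1 library was left out; with the replicate block on glands it was 2.65. The cause was not tested. Where a P13 library was left out, the other was assumed to vary like the other groups. The median log2 change within glands was 2.46 to 4.14 for ENSECAG00000006694 and 2.24 to 4.41 for ENSECAG00000035510 when 1 gland was left out. With Spearman's rho, 1 of the 2 genes most like each of the 3 stayed, and without the first gland of Kate 1 of 2 stayed for ENSECAG00000035510. The non-overlap of the changes by status, examined after seeing the data, held for all 3 genes under other scalings and a prior count of 0.5. Depth limits ENSECAG00000035510 at day 11, where no library held more than 7 reads.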

Other observations

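The 30 genes at least 4-fold higher at day 13 in at least 5 of 6 glands, a list chosen after the data were seen, give a setting for the 3 described above. In the first gland of Kate 22 of the 30 were lower at day 13 than at day 11, with a median log2 change of -1.33 there. The median over all genes tested in that gland was -0.011. ENSECAG00000017274 is among the 22 and ENSECAG00000035510 is not. Of the 30, 26 were under 0.5 CPM in at least 6 of 8 day 11 libraries. The list was chosen on these changes and favours genes that were low at day 11. Its rule also leaves 1 gland free to fall, so nothing is read from these counts. The share of all genes as low at day 11 was not taken.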
